A study of Homo sapiens with 9 samples.

Results

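The genes described here are 10 secreted signalling proteins: the CC chemokines CCL2 and CCL20, the CXC chemokines CXCL1, CXCL2, CXCL3, CXCL5 and CXCL8, the cytokines IL6 and LIF, and the pentraxin PTX3. They were taken by symbol from a table of 51796 genes, and all 10 were matched. They were selected on measured values, because CCL2, PTX3, CXCL2 and CXCL8 differed between 2 knockdowns, so their values in that contrast are a description and were not tested. Of the 10, 8 had enough reads to enter the test across 14582 genes, and CXCL5 and IL6 did not.

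RNA sequencing was performed on A549, an established human lung adenocarcinoma line, in 3 groups of 3 biological replicates. The groups carried stable hairpins against PRMT5, against MEP50 (gene WDR77), or, as the control, against GFP, and all 9 libraries came from cells kept under puromycin selection. PRMT5 places symmetric dimethyl marks on arginines, and MEP50 is its obligate WD-repeat partner. The labels give neither the hairpin sequences nor the number of hairpins per target, and nothing says that replicates came from separate transductions, so p-values measure only the spread between these libraries. Because these are bulk samples, fewer cells of a type and less RNA per cell cannot be told apart.

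Chemokines are small proteins that guide migrating leukocytes. CXCL1, CXCL2, CXCL3, CXCL5 and CXCL8 attract neutrophils through the receptor CXCR2, CCL2 attracts monocytes through CCR2, and CCL20 attracts CCR6-bearing lymphocytes and dendritic cells. IL6 and LIF signal through the shared receptor chain gp130, encoded by IL6ST, to JAK kinases and STAT3. PTX3 is a soluble pattern-recognition protein that takes part in building hyaluronan matrix. In epithelial and tumour cells these genes are classical targets of NF-kB, AP-1 and C/EBP transcription factors, and the NF-kB subunit RELA has been described as a substrate of PRMT5.

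Libraries held 20806181 to 31586128 reads on genes. Levels are given as CPM, the reads of a gene scaled to the size of its library, after TMM scaling, a correction for library composition. PRMT5 stood at 68.9 ± 1.33 CPM in PRMT5-knockdown cells, which is 33.1% of its 208.4 ± 3.17 CPM in the GFP control (SD, n = 3 each). WDR77 stood at 12.5 ± 1.58 CPM in MEP50-knockdown cells, which is 31.8% of its 39.4 ± 0.225 CPM in the control. The A549 genes KRT8, KRT18, ALDH1A1 and AKR1B10 were abundant in every group, while EPCAM and KRT19 had at most 7 reads in any library. The 8 genes of the A549 and epithelial list summed to 10433.3 to 10691.1 CPM in control libraries. That sum was lower in both knockdowns, at 8126.2 to 8395.0 CPM with PRMT5 knockdown and 8486.5 to 8952.4 CPM with MEP50 knockdown. KRT8 and KRT18 means were lower and the AKR1B10 mean higher in both knockdowns. Of 12 leukocyte markers, 10 had at most 10 reads in any library, with PTPRC at 1 read in each group, and the exceptions were CD68 and ITGAM. The leukocyte list summed to 23.8 to 27.2 CPM in PRMT5-knockdown, 26.0 to 29.8 CPM in MEP50-knockdown and 15.7 to 17.9 CPM in control libraries. Most of that sum was CD68, which averaged 23.1, 26.9 and 15.7 CPM in the same groups. All 5 endothelial markers measured had at most 10 reads. The 7 fibroblast markers summed to 213.8 to 225.1 CPM in PRMT5-knockdown, 258.7 to 276.1 CPM in MEP50-knockdown and 103.7 to 104.9 CPM in control libraries, most of it COL3A1. LUM, on the same list, fell to 0.628 ± 0.240 CPM in PRMT5-knockdown cells and rose to 7.90 ± 0.167 CPM in MEP50-knockdown cells, against 5.17 ± 0.646 CPM in the control (edgeR adjusted p = 2.02e-15 and 0.000845). DCN had 1 read in all and THY1 had 0, and LUM was named after its values were seen.

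The promoter table from RefSeq, on GRCh38.p14, held 8 of the 10 genes, without CCL2 and LIF. The stretches below end at the base before the transcription start and are written 5′ to 3′ on the gene's strand. Capitals mark matches to GGNNTTTCC (an NF-kB type motif, both strands), TGANTCA (AP-1 type, both strands) and TATAAA (sense strand). CXCL1, CXCL2 and CXCL3 are shown because their sequences are nearly alike, CXCL8 because this neighbour of the same family behaved otherwise, CCL20 because it went down in both knockdowns, and PTX3 because it rose most in PRMT5-knockdown cells.
CXCL1, chr4:73869273-73869392, plus strand: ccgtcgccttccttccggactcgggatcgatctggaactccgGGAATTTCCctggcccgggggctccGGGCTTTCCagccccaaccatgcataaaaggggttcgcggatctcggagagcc
CXCL2, chr4:74099196-74099315, minus strand: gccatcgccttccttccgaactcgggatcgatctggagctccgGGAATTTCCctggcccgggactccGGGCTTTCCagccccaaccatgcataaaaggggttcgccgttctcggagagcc
CXCL3, chr4:74038690-74038809, minus strand: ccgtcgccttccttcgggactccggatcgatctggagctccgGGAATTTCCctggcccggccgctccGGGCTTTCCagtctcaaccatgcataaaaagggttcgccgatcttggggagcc
CXCL8, chr4:73740419-73740568, plus strand: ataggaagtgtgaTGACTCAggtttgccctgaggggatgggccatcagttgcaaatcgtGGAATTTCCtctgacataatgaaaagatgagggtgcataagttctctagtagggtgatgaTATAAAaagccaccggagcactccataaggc
CCL20, chr2:227813722-227813841, plus strand: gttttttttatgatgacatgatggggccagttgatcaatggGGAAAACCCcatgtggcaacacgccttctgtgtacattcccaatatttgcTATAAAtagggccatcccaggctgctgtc
PTX3, chr3:157436730-157436849, plus strand: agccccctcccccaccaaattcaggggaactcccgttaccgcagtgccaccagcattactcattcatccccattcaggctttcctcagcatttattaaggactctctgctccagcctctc

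In a gapped alignment of these 120 bases, CXCL1 was 93.4% identical to CXCL2 and 90.8% identical to CXCL3, and CXCL2 was 88.4% identical to CXCL3. Each of these 3 promoters held the same pair of NF-kB type matches, GGAATTTCC and GGGCTTTCC. CXCL8 and CXCL5 held GGAATTTCC once. Over the 250 bases before the start, an NF-kB type match was present in 7 of the 8 promoters, all but that of PTX3, against 5.48% of all 35116 tabled promoters. AP-1 type matches were present in CXCL8 only, against 6.57% of all promoters. A C/EBP type motif, TTGCNNAA on either strand, was matched in CXCL2, IL6 and PTX3, against 9.05% of all promoters, and lay upstream of the stretches printed here. TATAAA was matched in CCL20 and CXCL8, against 6.80%. No matches of different motifs overlapped in these 8 promoters. A match describes the letters and is not evidence of a bound site.

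Against the GFP control, the members split into genes that moved in both knockdowns and genes that moved in one of them. In PRMT5-knockdown cells CCL2, CXCL1, CXCL2 and PTX3 rose, CCL20 and LIF fell, and CXCL3 and CXCL8 did not pass the test, out of 8 tested (edgeR quasi-likelihood test, Benjamini-Hochberg adjusted p at most 0.05). Over all genes tested, 26.1% were called higher and 24.9% lower in that comparison. In MEP50-knockdown cells CXCL1, CXCL2 and CXCL3 rose, CCL20, CXCL8 and LIF fell, and CCL2 and PTX3 did not pass. The background there was 26.5% higher and 25.2% lower. The median log2 fold change of the 8 was 1.75 in PRMT5-knockdown and 0.23 in MEP50-knockdown cells, against 0.00 over all genes in each. Both comparisons use the same 3 control libraries. CCL20 passed the low-count filter only through the control libraries, and CXCL1 and CXCL3 only through knockdown libraries, so these 3 had to differ to be tested. The list was also chosen on measured values of CCL2, PTX3, CXCL2 and CXCL8. The counts and medians above are therefore no evidence for the group as a whole.

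**Figure D1:**
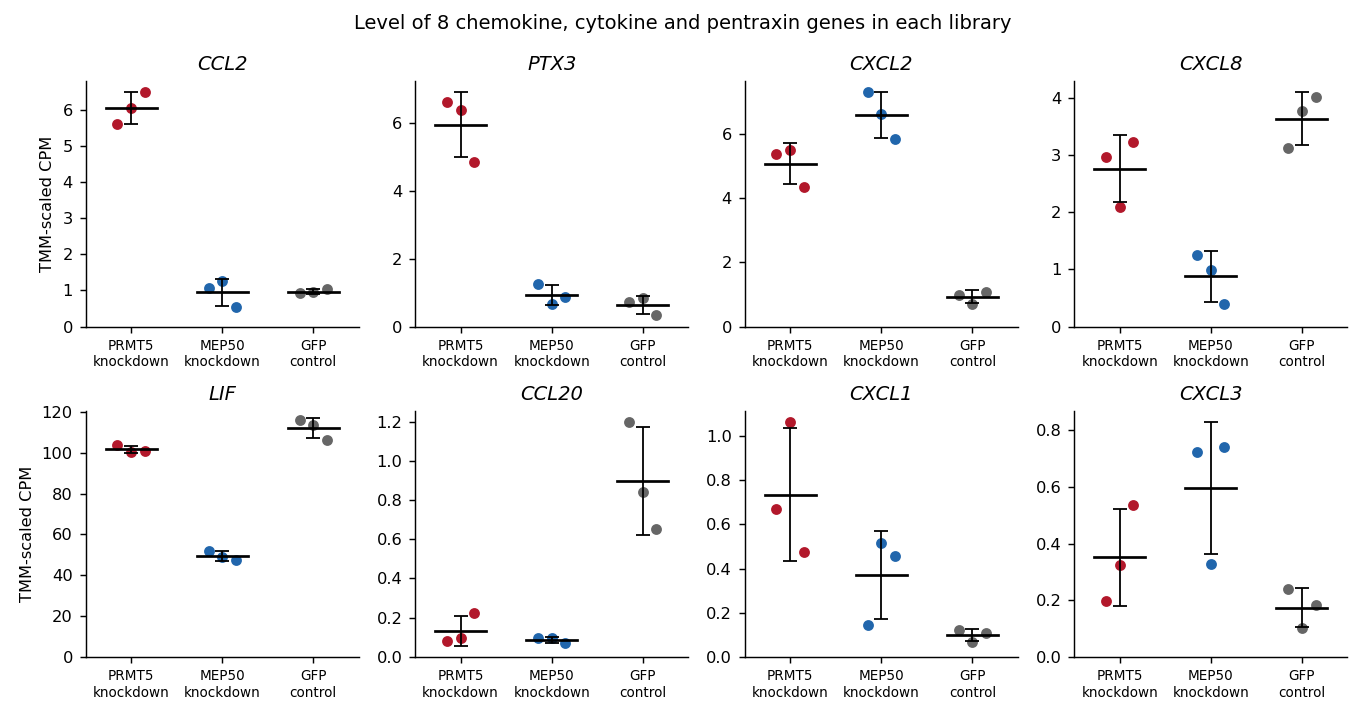
Level of the 8 tested genes in each library, in TMM-scaled CPM on linear axes that start at 0; points are libraries, horizontal lines group means and error bars SD (n = 3). CCL2 and PTX3 stand above 4.8 CPM in the PRMT5-knockdown libraries and below 1.3 CPM in all others, CXCL2 is high in both knockdowns, and CXCL8 and LIF are lowest in the MEP50-knockdown libraries.

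CCL2, the monocyte chemokine, had 5.60, 6.06 and 6.50 CPM in PRMT5-knockdown libraries, 1.06, 1.26 and 0.528 CPM in MEP50-knockdown libraries and 0.917, 0.943 and 1.05 CPM in control libraries. All PRMT5-knockdown libraries lay above all 6 others, and the MEP50-knockdown libraries lay around the control. The log2 fold change of CCL2 was 2.64 ± 0.219 (SE) in PRMT5-knockdown cells, a ratio of means of 6.24 (edgeR adjusted p = 2.18e-13). In MEP50-knockdown cells it was -0.08 ± 0.292 (edgeR adjusted p = 0.841).

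PTX3 had 6.62, 6.38 and 4.86 CPM in PRMT5-knockdown libraries, 1.26, 0.654 and 0.880 CPM in MEP50-knockdown libraries and 0.718, 0.842 and 0.326 CPM in control libraries. As for CCL2, the PRMT5-knockdown libraries stood apart from the rest, and the MEP50-knockdown and control libraries overlapped. Its log2 fold change of 3.23 ± 0.252 in PRMT5-knockdown cells was the largest rise among the members and ranked 25 among the rises of 14582 genes (edgeR adjusted p = 3.71e-14). The SE range of CXCL1, at 2.86 ± 0.567, overlapped that of PTX3. In choosing the list, PTX3 was among the genes used. In MEP50-knockdown cells the log2 fold change of PTX3 was 0.55 ± 0.334 (edgeR adjusted p = 0.174). VEPH1, which overlaps PTX3 on the opposite strand, had 2 to 15 reads per library, and its totals were 17, 21 and 19 reads in the PRMT5-knockdown, MEP50-knockdown and control groups, against 520, 65 and 52 for PTX3.

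CXCL2, a neutrophil chemokine, rose in both knockdowns. It had 5.36, 5.51 and 4.35 CPM in PRMT5-knockdown libraries, 7.29, 6.63 and 5.84 CPM in MEP50-knockdown libraries and 0.997, 0.708 and 1.09 CPM in control libraries. Every knockdown library lay above every control library, and the MEP50-knockdown libraries were the highest. The log2 fold change was 2.45 ± 0.203 in PRMT5-knockdown cells (edgeR adjusted p = 2.20e-13) and 2.82 ± 0.201 in MEP50-knockdown cells (edgeR adjusted p = 2.37e-15).

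CXCL8, also called interleukin-8, fell in MEP50-knockdown cells. It had 2.96, 2.10 and 3.22 CPM in PRMT5-knockdown libraries, 1.26, 0.981 and 0.387 CPM in MEP50-knockdown libraries and 3.11, 3.77 and 4.02 CPM in control libraries. The MEP50-knockdown libraries lay below all others, whereas the PRMT5-knockdown and control libraries overlapped. The log2 fold change was -0.40 ± 0.219 in PRMT5-knockdown cells (edgeR adjusted p = 0.124) and -2.12 ± 0.272 in MEP50-knockdown cells (edgeR adjusted p = 1.51e-08). The mean in MEP50-knockdown cells was 24.1% of that in the control.

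CXCL1 and CXCL3, close paralogs of CXCL2, were covered by few reads. CXCL1 had 17, 33 and 15 reads in the PRMT5-knockdown libraries, 3, 11 and 13 in the MEP50-knockdown libraries and 3, 2 and 3 in the control libraries. Only the lowest MEP50-knockdown library came near the control level. After scaling, the ratio of reads to the control was 7.60 in PRMT5-knockdown cells (95% counting interval 3.64 to 18.3) and 3.94 in MEP50-knockdown cells (1.74 to 10.0). In edgeR the log2 fold changes of CXCL1 were 2.86 ± 0.567 (adjusted p = 4.72e-05) and 1.92 ± 0.650 (adjusted p = 0.0125). The MEP50 call for CXCL1 was lost without MEP50-knockdown replicate 2 (1.67, edgeR adjusted p = 0.0614), without MEP50-knockdown replicate 3 (1.71, edgeR adjusted p = 0.0647) and without control replicate 2 (1.69, edgeR adjusted p = 0.0562). The adjusted p ranged from 0.00398 to 0.0647 over 14 alternatives.

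CXCL3 had 5, 10 and 17 reads in the PRMT5-knockdown libraries, 15, 7 and 21 in the MEP50-knockdown libraries and 6, 3 and 5 in the control libraries. The PRMT5-knockdown libraries overlapped the control in CPM and the MEP50-knockdown libraries did not. The read ratio of CXCL3 to the control was 2.14 (95% counting interval 1.11 to 4.34) in PRMT5-knockdown cells and 3.59 (1.93 to 7.10) in MEP50-knockdown cells. In edgeR the log2 fold changes were 1.06 ± 0.567 (adjusted p = 0.120) and 1.80 ± 0.538 (adjusted p = 0.00478). Of all stretches of 50 bases in the annotated transcripts, 4.81% of those of CXCL1, 12.5% of those of CXCL2 and 6.01% of those of CXCL3 occur in another of these 3 genes. Reads within such stretches could not be told apart by sequence, and how the counting treated them is not given. The size of any effect on the values of these 3 genes was not tested. CCL2, CCL20, CXCL8, IL6, PTX3 and LIF shared no such stretch with another gene.

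CXCL5 had 1 read in PRMT5-knockdown replicate 3 and 0 in the other libraries. A count of 0 allows up to 3 reads, or 0.0950 to 0.144 CPM depending on the library, counting error only. These CXC genes lie in 1 cluster on chromosome 4, where the GENCODE order is CXCL8, CXCL6, PF4V1, CXCL1, PF4, PPBP, CXCL5, CXCL3 and CXCL2. CXCL6, PF4V1, PF4 and PPBP had 0 reads in all 9 libraries. In PRMT5-knockdown cells CXCL2 and CXCL1 rose, and in MEP50-knockdown cells CXCL2, CXCL3 and CXCL1 rose while CXCL8, at the other end of the cluster, fell.

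**Figure D2:**
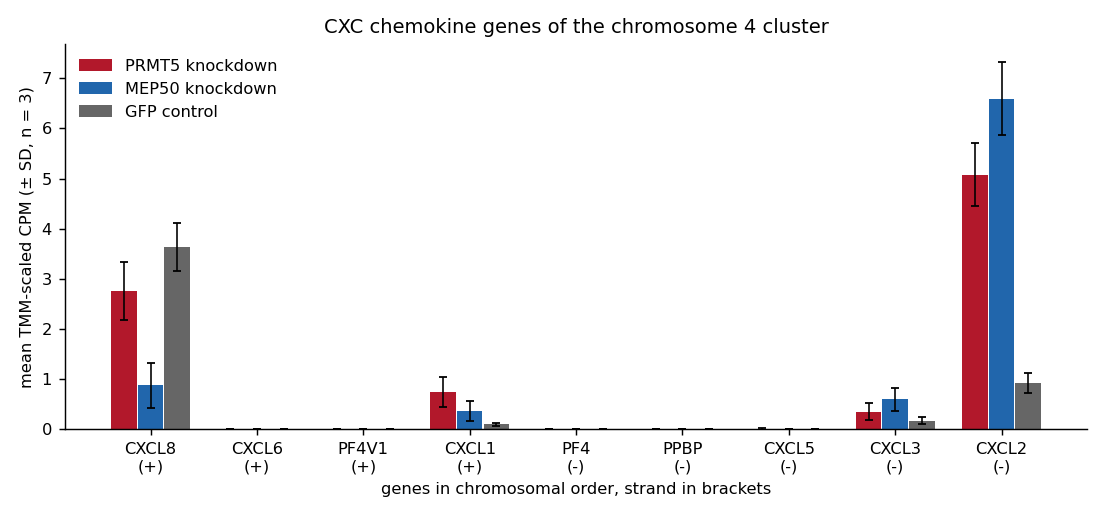
Mean TMM-scaled CPM (bars, ± SD, n = 3) of the CXC genes in their order along chromosome 4, on a linear axis from 0, with the strand under each name. CXCL2 averages 5.08 CPM in PRMT5-knockdown, 6.59 in MEP50-knockdown and 0.930 in control cells, while CXCL8 averages 2.76, 0.875 and 3.63 CPM in the same groups; CXCL6, PF4V1, PF4 and PPBP are at 0.

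CCL20, the ligand of CCR6, fell in both knockdowns. It had 2, 3 and 7 reads in the PRMT5-knockdown libraries, 2, 2 and 2 in the MEP50-knockdown libraries and 30, 25 and 18 in the control libraries. No knockdown library reached the lowest control library. The read ratio of CCL20 to the control was 0.154 (95% counting interval 0.0760 to 0.285) in PRMT5-knockdown cells and 0.0960 (0.0341 to 0.219) in MEP50-knockdown cells. In edgeR the log2 fold changes were -2.67 ± 0.495 (adjusted p = 1.71e-05) and -3.32 ± 0.574 (adjusted p = 5.15e-06). Without PRMT5-knockdown replicate 3, whose 7 reads are the most of any knockdown library, the first was -3.27.

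LIF, a cytokine of the IL6 family, was by far the most abundant member. It had 103.7, 100.3 and 100.7 CPM in PRMT5-knockdown libraries, 51.8, 49.1 and 47.2 CPM in MEP50-knockdown libraries and 115.8, 113.6 and 106.4 CPM in control libraries. The 3 groups did not overlap. In MEP50-knockdown cells LIF fell to 44.1% of the control, a log2 fold change of -1.18 ± 0.0446 (edgeR adjusted p = 2.41e-24). In PRMT5-knockdown cells it fell to 90.8% of the control, a log2 fold change of -0.14 ± 0.0409 (edgeR adjusted p = 0.00407). Its antisense gene LIF-AS1 had at most 5 reads in any library. IL6 had 1 read in PRMT5-knockdown replicate 2 and 0 elsewhere, so its level was below what this depth can measure.

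**Figure D3:**
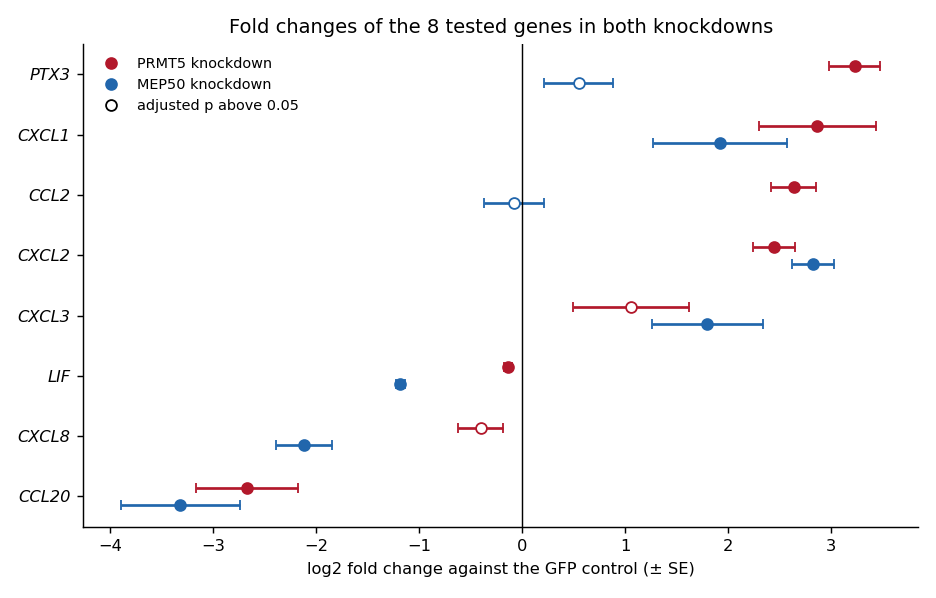
Log2 fold change against the GFP control (± SE, edgeR) of the 8 tested genes in PRMT5-knockdown (red) and MEP50-knockdown cells (blue); open points have an adjusted p above 0.05. CXCL1 and CXCL2 lie right of 0 and CCL20 left of 0 in both, whereas PTX3 (3.23 and 0.55) and CCL2 (2.64 and -0.08) are far right in PRMT5-knockdown cells alone, and both comparisons share their control libraries.

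Between the knockdowns, the contrast on which the genes were chosen, the values are descriptive. The PRMT5-knockdown mean was 6.37 times the MEP50-knockdown mean for CCL2, 6.40 times for PTX3, 3.15 times for CXCL8 and 2.06 times for LIF. For these 4 genes all PRMT5-knockdown libraries lay above all MEP50-knockdown libraries, as did 23.1% of all genes tested. CXCL2 was the only member for which they all lay below, at 0.770 times the MEP50-knockdown mean, as did 24.2% of all genes. That count of members below became 2 without PRMT5-knockdown replicate 3 or without MEP50-knockdown replicate 2. Libraries of the knockdowns overlapped for CXCL1, CXCL3 and CCL20. By the edgeR test, 19.2% of all genes were higher and 20.5% lower in PRMT5-knockdown than in MEP50-knockdown cells.

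Levels of different genes were compared per kilobase of exon. In the control LIF led with 28.2 ± 1.24 CPM per kilobase and CXCL8 came second with 1.60 ± 0.206. CXCL2 (0.620 ± 0.132), CCL20 (0.563 ± 0.173), CCL2 (0.488 ± 0.0353) and PTX3 (0.324 ± 0.139) followed in CPM per kilobase, and each pair of neighbours among these 4 overlapped within 1 SD. CXCL3 and CXCL1, at 0.0783 and 0.0760 CPM per kilobase, overlapped too and came last of the genes tested.

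In PRMT5-knockdown cells the order per kilobase was LIF (25.6 ± 0.470), then CXCL2 (3.38 ± 0.421), PTX3 (3.07 ± 0.494) and CCL2 (3.05 ± 0.226), whose neighbours overlapped within 1 SD, then CXCL8 (1.21 ± 0.258). In MEP50-knockdown cells LIF (12.4 ± 0.575) and CXCL2 (4.39 ± 0.484) led in CPM per kilobase, and PTX3, CCL2, CXCL8, CXCL1 and CXCL3 followed between 0.479 and 0.269 with every neighbour overlapping. LIF made up 82.8 ± 0.501% of the CPM of all 10 genes in PRMT5-knockdown, 82.7 ± 1.39% in MEP50-knockdown and 93.8 ± 0.318% in control libraries. The other 9 genes together had 21.1 ± 0.777 CPM in PRMT5-knockdown, 10.4 ± 1.46 CPM in MEP50-knockdown and 7.33 ± 0.0770 CPM in control libraries.

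The genes nearest in pattern were sought among the 12679 tested genes that averaged 1 CPM or more, by the mean absolute difference of log2 CPM over the 9 libraries after centring each gene. The nearest to CCL2 were SERPINF1 (0.43), ANKRD2 (0.46) and PTX3 (0.49), and the nearest to PTX3 were CCL2 (0.49), ANKRD2 (0.54) and MCAM (0.55), each given as that difference. SERPINF1, which encodes the secreted protein PEDF, averaged 8.31 CPM in PRMT5-knockdown, 2.27 CPM in MEP50-knockdown and 2.29 CPM in control cells. The nearest to CXCL2 were ITPK1 (0.21), LYPD1 (0.22) and FOXC2 (0.23), and those to CXCL8 were WNK3 (0.26), SUMF1 (0.30) and the unnamed identifier ENSG00000159239 (0.33). The likeness is over 9 libraries of 3 groups and is a description.

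Lists of related genes, chosen with earlier results of these data known, held 205 genes, of which 199 were matched and 106 were tested. The members are not among them. In PRMT5-knockdown cells 43 of the 106 were called higher (40.6%) and 22 lower (20.8%), and in MEP50-knockdown cells 32 were higher (30.2%) and 27 lower (25.5%). Over all genes the shares were 26.1% higher and 24.9% lower with PRMT5 knockdown and 26.5% higher and 25.2% lower with MEP50 knockdown, so the shares with MEP50 knockdown lay near the background. The counts of each list below are to be read against the same shares, and small lists cannot be told from them by a count alone. Other chemokine genes were mostly silent. Of 28 other chemokine genes matched, 22 had 0 reads and only CX3CL1 and CXCL16 were tested. CCL28, which was not tested, had 0 reads in PRMT5-knockdown, 0 in MEP50-knockdown and 24 in control libraries, and was named after its values were seen. With no low-count filter, 2 other chemokine genes were called lower in each knockdown, against 1 with the filter. CX3CL1, a membrane-bound chemokine, rose in both knockdowns, with log2 fold changes of 1.26 ± 0.0829 (PRMT5 knockdown, edgeR adjusted p = 2.13e-16) and 0.91 ± 0.0863 (MEP50 knockdown, edgeR adjusted p = 7.27e-12). CXCL16, also membrane-anchored, fell in both, by 0.65 and 0.40 on the log2 scale (edgeR adjusted p = 3.18e-06 and 0.00209).

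Of 30 other cytokine genes 10 were tested, with 3 higher and 1 lower in PRMT5-knockdown cells and 2 higher and 2 lower in MEP50-knockdown cells. IL11, which signals through gp130 as LIF does, averaged 16.6 ± 1.01 CPM in PRMT5-knockdown, 7.17 ± 1.70 CPM in MEP50-knockdown and 10.7 ± 0.571 CPM in control cells. It rose with PRMT5 knockdown (log2 0.64 ± 0.106, edgeR adjusted p = 2.77e-06) and fell with MEP50 knockdown (log2 -0.58 ± 0.120, edgeR adjusted p = 8.02e-05), and the difference between the knockdowns was 1.22 ± 0.115 (edgeR adjusted p = 1.51e-11). IL18, an inflammasome-processed cytokine, fell in both, with log2 fold changes of -1.38 and -0.95, and IL32 rose in both, with 1.30 and 1.06. IL15 rose by 0.42 and 1.03 on that scale. TNF and IL1A had 0 reads and IL1B 1 read in all 9 libraries.

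Receptors for the chemokines were hardly read. CCR2 had 0 reads, CXCR2 at most 2 and CCR6 at most 10 in any library, and of 17 chemokine receptors and decoys only the scavenging receptor ACKR3 was tested. ACKR3 had 19 reads in PRMT5-knockdown, 66 in MEP50-knockdown and 5 in control libraries, a log2 fold change of 3.85 ± 0.614 in MEP50-knockdown cells (edgeR adjusted p = 1.24e-06) and of 1.75 ± 0.772 in PRMT5-knockdown cells (edgeR adjusted p = 0.0558). Without control replicate 3 the log2 fold change in PRMT5-knockdown cells was 3.25 (edgeR adjusted p = 0.0143), and that in MEP50-knockdown cells was 5.36. ACKR3 passed the low-count filter only through the MEP50-knockdown libraries, so it had to differ to be tested, and it was not tested with a filter at 1 CPM in 3 libraries. It was named after its values were seen.

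Receptors and signalling genes of the IL6 family were expressed, and 17 of 18 were tested, with 7 higher and 2 lower in PRMT5-knockdown cells and 7 higher and 4 lower in MEP50-knockdown cells. The 4 lower calls became 2 without MEP50-knockdown replicate 2 or control replicate 2, and 1 without control replicate 3. IL6ST, the gp130 chain, rose in PRMT5-knockdown cells (393.4 ± 5.40 CPM, against 319.5 ± 4.74 CPM in the control; log2 0.30 ± 0.0292, edgeR adjusted p = 1.67e-11) and stood at 310.9 ± 12.2 CPM in MEP50-knockdown cells (edgeR adjusted p = 0.277). IL6R, the IL6-binding chain, fell in PRMT5-knockdown cells, with a log2 fold change of -0.62 ± 0.0845 (edgeR adjusted p = 6.10e-08). LIFR, the LIF-binding chain, had a log2 fold change of 0.02 ± 0.0481 in PRMT5-knockdown cells (edgeR adjusted p = 0.795) and of -0.15 ± 0.0495 in MEP50-knockdown cells (edgeR adjusted p = 0.0115), and that call was lost without control replicate 2 (edgeR adjusted p = 0.0699) or 3 (edgeR adjusted p = 0.0601). PIAS3, an inhibitor of STAT3, rose in both (0.55 and 0.63), BCL6, a transcriptional repressor, fell in both (-0.81 and -0.75), and SOCS3, a STAT3-induced feedback inhibitor, rose in both (0.43 and 0.18), and its call with MEP50 knockdown was lost without MEP50-knockdown replicate 1 or control replicate 1 or 2 (edgeR adjusted p 0.0644 to 0.0968). Of 2 further genes induced by STAT signalling, PIM1 rose in both (0.29 and 0.48), and CISH rose by 0.70 in MEP50-knockdown cells and had a log2 fold change of 0.21 in PRMT5-knockdown cells (edgeR adjusted p = 0.413).

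Among NF-kB subunits and kinases, 9 were tested, with 5 higher and 2 lower in PRMT5-knockdown cells (26.1% and 24.9% over all genes) and 2 higher and 3 lower in MEP50-knockdown cells (26.5% and 25.2% over all genes), the counts with MEP50 knockdown being near those shares. The 2 lower calls of PRMT5-knockdown cells became 1 without their replicate 3 or control replicate 2, and the 2 higher calls of MEP50-knockdown cells became 1 without their replicate 1 or control replicate 1 or 2. RELA, the main activating subunit, had log2 fold changes of 0.06 ± 0.0386 (PRMT5 knockdown, edgeR adjusted p = 0.178) and 0.06 ± 0.0393 (MEP50 knockdown, edgeR adjusted p = 0.235). NFKB1, the p105/p50 precursor gene, rose in both, by 0.65 and 0.58. NFKB2, the precursor subunit of the noncanonical pathway, averaged 143.9 ± 2.57 CPM in PRMT5-knockdown, 73.0 ± 8.80 CPM in MEP50-knockdown and 108.2 ± 1.46 CPM in control cells. It thus rose in PRMT5-knockdown (log2 0.41 ± 0.0489, edgeR adjusted p = 7.24e-08) and fell in MEP50-knockdown cells (log2 -0.57 ± 0.0522, edgeR adjusted p = 5.64e-10), with a difference between them of 0.98 ± 0.0513 (edgeR adjusted p = 1.61e-14). MAP3K14, the NIK kinase of the same pathway, was 0.89 ± 0.0583 higher on the log2 scale in PRMT5-knockdown than in MEP50-knockdown cells (edgeR adjusted p = 2.32e-15). CHUK, an IKK kinase, fell by 0.54 in PRMT5-knockdown cells, and RELB rose by 0.23 in PRMT5-knockdown cells (edgeR adjusted p = 0.0110) and fell by 0.43 in MEP50-knockdown cells. The rise of RELB was lost without control replicate 1 (edgeR adjusted p = 0.0862).

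Of 14 NF-kB inhibitors and feedback genes, 4 were higher and 4 lower in PRMT5-knockdown cells, and 1 was higher and 4 lower in MEP50-knockdown cells. The 4 lower calls of PRMT5-knockdown cells became 2 without their replicate 1 or 2 or control replicate 1 or 3, and the 1 higher call of MEP50-knockdown cells became 2 without their replicate 2 or control replicate 1 or 3. NFKBIA, which encodes the inhibitor that holds RELA in the cytoplasm, fell in both, with log2 fold changes of -0.25 ± 0.0480 (edgeR adjusted p = 4.00e-05) and -0.61 ± 0.0501 (edgeR adjusted p = 1.64e-13). NFKBIE rose by 0.51 and NFKBID by 0.63 in PRMT5-knockdown cells, and the deubiquitinase CYLD fell by 0.39 in MEP50-knockdown cells. BCL3, a nuclear cofactor, rose by 0.31 in MEP50-knockdown cells and fell by 0.18 in PRMT5-knockdown cells (edgeR adjusted p = 0.0480), a call lost without any 1 of the PRMT5-knockdown or control libraries (edgeR adjusted p 0.0521 to 0.130). Upstream, 22 of 27 receptors and adaptors of IL1, TNF and Toll signalling were tested, with 7 higher and 3 lower in PRMT5-knockdown cells and 7 higher and 5 lower in MEP50-knockdown cells, where 26.5% of all genes were higher and 25.2% lower. The 3 lower calls became 1 without PRMT5-knockdown replicate 2. IL1R1, the signalling IL1 receptor, rose in both (0.51 and 0.88), BIRC3, a ubiquitin ligase of TNF signalling, rose in both (0.81 and 0.18), and the adaptor MYD88 rose by 0.74 in MEP50-knockdown cells. TLR4 fell in PRMT5-knockdown cells, with 51 reads against 135 in the control (log2 -1.49 ± 0.326, edgeR adjusted p = 0.000183). In MEP50-knockdown cells the log2 fold change of TLR4 was 0.03 (edgeR adjusted p = 0.948), and IL1RAP fell by 0.43 (edgeR adjusted p = 3.17e-05). The call of BIRC3 with MEP50 knockdown (edgeR adjusted p = 0.0388) was lost in 7 alternatives, among them leaving out MEP50-knockdown replicate 1 (log2 0.060, edgeR adjusted p = 0.480), control replicate 1 or 2 or PRMT5-knockdown replicate 2.

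**Figure D4:**
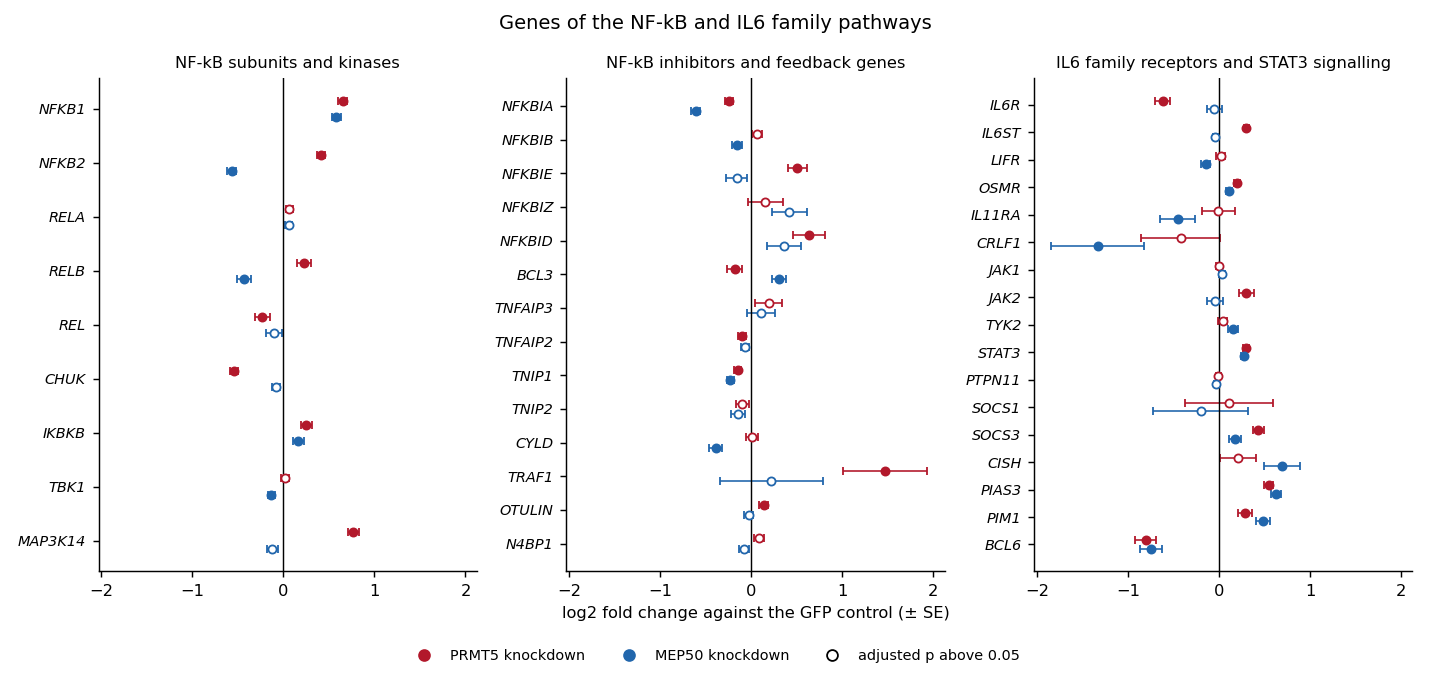
Log2 fold change against the GFP control (± SE, edgeR) of every tested gene in 3 lists, PRMT5 knockdown in red and MEP50 knockdown in blue; open points have an adjusted p above 0.05. NFKB2 lies at 0.41 in PRMT5-knockdown and -0.57 in MEP50-knockdown cells, NFKB1 right of 0 in both, and NFKBIA left of 0 in both.

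Of 5 C/EBP factors tested, 2 rose in each knockdown and none fell by edgeR. They were CEBPG, with log2 fold changes of 0.73 and 0.95, and CEBPD, with 0.44 and 0.50. The PRMT5 call of CEBPD was lost without control replicate 1 or 2 (edgeR adjusted p = 0.0504 and 0.0749). CEBPB, long known as an inducer of IL6, varied widely within groups, at 129.5 ± 16.0 CPM in PRMT5-knockdown, 127.6 ± 26.9 CPM in MEP50-knockdown and 177.8 ± 34.1 CPM in control cells (edgeR adjusted p = 0.122 and 0.107). All 16 decay and stability factors of cytokine mRNA were tested, with 9 higher and 4 lower in PRMT5-knockdown cells and 6 higher and 4 lower in MEP50-knockdown cells. The 4 lower calls of PRMT5-knockdown cells became 1 without their replicate 2 or control replicate 3. ZFP36L1, which promotes decay of AU-rich transcripts, rose in both (0.47 and 0.71), ARID5A, which stabilises IL6 mRNA, rose in both (0.43 and 0.61), and ZC3H12A, an endonuclease for cytokine mRNA, fell in both (-0.42 and -0.34). The PRMT5 call of ARID5A was lost without PRMT5-knockdown replicate 3 or control replicate 3 (edgeR adjusted p = 0.0992 and 0.0915).

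Among 7 tested pentraxins and partners of PTX3, 4 were higher and 3 lower in PRMT5-knockdown cells, and 3 were higher and 2 lower in MEP50-knockdown cells. Of the hyaluronan synthases, HAS3 rose in both, with log2 fold changes of 2.69 ± 0.0755 (PRMT5 knockdown, edgeR adjusted p = 8.57e-29) and 1.67 ± 0.0813 (MEP50 knockdown, edgeR adjusted p = 1.16e-20). HAS2 fell in PRMT5-knockdown cells to 48.0 ± 1.27 CPM, against 113.2 ± 6.08 CPM in the control (log2 -1.24 ± 0.0517, edgeR adjusted p = 4.81e-19), and rose in MEP50-knockdown cells to 129.9 ± 11.5 CPM (log2 0.20 ± 0.0484, edgeR adjusted p = 0.000792). NPTX1, a neuronal pentraxin, rose by 0.88 in PRMT5-knockdown cells, and NPTXR, its membrane-bound relative, rose in both (0.55 and 0.85). Of 3 tested genes among other secreted or surface products of inflammation, PTGS2 and C3 fell in both knockdowns, with log2 fold changes of C3 of -2.18 and -2.12, and ICAM1 had at most 2 reads in any library.

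The authors' deposited table for PRMT5 knockdown listed 6807 genes, among them 6 of the 10 members: CCL2, CCL20, CXCL1, CXCL2, PTX3 and LIF. The authors' deposited table for MEP50 knockdown listed 6832 genes, among them CCL20, CXCL2, CXCL3, CXCL8 and LIF. CXCL1 is absent from the authors' deposited table for MEP50 knockdown. For genes with few reads the DESeq2 column of the authors' deposited tables holds smaller changes than their edgeR column. The authors' deposited table for PRMT5 knockdown gives CXCL1 a log2 fold change of 1.11 by DESeq2 and 2.86 by edgeR, and CCL20 -1.22 by DESeq2 and -2.68 by edgeR. For LIF both columns of the authors' deposited table for MEP50 knockdown read about the same, -1.17 by DESeq2 and -1.18 by edgeR.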

How the data were processed

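Stranded libraries were made from rRNA-depleted A549 RNA, per the labels. The deposited table held counts, whole numbers of reads for each Ensembl identifier. Trim Galore, STAR, HTSeq and the hg19 build are named in the submitters' processing notes, and their versions and the strand setting of counting are not given in the sources used here. The authors' comparison tables held, per the file headers, log2 fold changes, test scores, p-values and mean normalised signal from DESeq2 and edgeR.

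Counts were tested with edgeR (4.0.16, under R 4.3.3) with the 9 libraries fitted together by group. Settings were TMM scaling, filterByExpr (14582 genes, a cutoff of about 0.361 CPM), robust quasi-likelihood dispersions and Benjamini-Hochberg adjustment over all genes at 0.05. The SE was obtained by dividing the size of the log2 fold change by the root of the F statistic. HTSeq's unassigned lines were left out, and reads on no gene were 11.9% to 14.5%. Replicate pairs differed by 3.39 to 4.71 times counting variance. Names were matched for 44822 identifiers (86.5%). Exon lengths came from GENCODE 29, on GRCh38. The fit was tested on simulated data with changes placed only in better-covered genes, which does not bear on CXCL1, CXCL3 and CCL20. Intervals and floors cover counting error only.

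The members and lists were chosen with earlier results of these data known. All members were named, with up to 4 called genes per list and knockdown (2 between knockdowns) that averaged 1 CPM or more and changed most, and some fixed receptors and regulators. Some genes that this rule named are not printed. CCL3, CCL4, CCL5, IKBKG, IKBKE, SOD2 and PECAM1 were not matched and not analysed here. Alternatives were other scalings, DESeq2 1.42.0, other filters, a replicate block, 6-library fits and leaving out each library.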

Additional observations from a re-analysis of the deposited data

How the results depend on the processing

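With a filter at 1 CPM in 3 libraries, 3 members instead of 4 were called higher and 1 instead of 2 lower with PRMT5 knockdown. With MEP50 knockdown that filter gave 1 instead of 3 higher, in each case because fewer genes were tested. In fits of 6 libraries 1 was called higher with MEP50 knockdown, since CXCL1 and CXCL3 were not tested there. Leaving out each library in turn kept 4 higher and 2 lower calls with PRMT5 knockdown, gave 2 to 3 higher with MEP50 knockdown, and gave 4 to 5 members above and 1 to 2 below between the knockdowns. The log2 fold change of CCL2 with MEP50 knockdown turned to 0.25 without MEP50-knockdown replicate 3 and ranged from -0.34 to 0.25 over the libraries left out. That of LIFR with PRMT5 knockdown turned to -0.019 without PRMT5-knockdown replicate 1 and to -0.035 without control replicate 1, with a highest value of 0.048. None of these values passed the test, and the cause was not tested. BCL3 with PRMT5 knockdown (-0.18, edgeR adjusted p = 0.0480) was lost with DESeq2 (adjusted p = 0.0625), with library-total scaling (edgeR adjusted p = 0.0561) and without each PRMT5-knockdown or control library in turn (edgeR adjusted p 0.0521 to 0.130). SOCS3 with MEP50 knockdown was lost with no low-count filter (edgeR adjusted p = 0.0631), and BIRC3 with MEP50 knockdown with DESeq2 (adjusted p = 0.0552), library totals (edgeR adjusted p = 0.0594) and fits of 6 libraries (edgeR adjusted p = 0.0581). CEBPB with MEP50 knockdown passed with DESeq2 only (-0.48, adjusted p = 0.0447). CXCL1 with MEP50 knockdown was the only member whose call was lost in any alternative that tested it. Correlations of same-numbered deviations were -0.04 to 0.05 over 9 pairs, and those of other numbers -0.05 to 0.05. In 5 of the 9 the same number gave the highest correlation. Between MEP50-knockdown and control libraries the same-numbered correlations were 0.052, 0.044 and 0.050, and those of other numbers were -0.046 to 0.0015. These correlations were small, and whether libraries were paired by design is not given in the labels. With the replicate number as a block, 4 members were higher and 2 lower with PRMT5 knockdown, 3 higher and 3 lower with MEP50 knockdown, and CXCL1 with MEP50 knockdown had an adjusted p of 0.0130. CXCL5 and IL6, with at most 1 read a library, did not enter the test, and CXCL1, CXCL3 and CCL20 had 2 to 33 reads a library.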
